A study of Mus musculus with 3 samples.

Results

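The MHC class II presentation genes examined here were H2-Aa, H2-Ab1, H2-Eb1, H2-DMa, H2-DMb1, Cd74 and Ciita, 7 genes chosen by their GENCODE M21 symbol. Of these, 5 had rows in the mRNA table, with 8 listed transcripts among the 56651 of the table, which belong to 15861 genes. No row of the table was that of H2-Ab1 or H2-DMb1, and both were not analysed here. The smallest total of any listed transcript over the libraries was 3 reads, and a missing row was not read as 0. The data are 3 RNA-seq libraries of apoptotic bodies (ABs, membrane-bound fragments shed by dying cells), with 1 per parent cell: bone marrow macrophages (BMM-ABs), preosteoclasts (pOC-ABs) and mature osteoclasts (mOC-ABs). The mice were C57BL/6, which the labels put at postnatal week 11. BMMs were grown from bone marrow in M-CSF at 50 ng/ml for 72 h, and pOCs and mOCs were made from them with RANKL at 100 ng/ml and M-CSF at 30 ng/ml for 24 h and for 72 h or more, according to the labels. The labels name 500 μM alendronate for 12 h as the inducer of apoptosis, whereas the methods of the study name staurosporine (0.5 μM for 3 h) and 96 h of RANKL for mOCs. The methods also give M-CSF at 50 ng/ml beside RANKL and 48 h of M-CSF for BMMs. The sample titles name only cells, but ABs are named in the series text, and the libraries are treated as such here. Whether animals were pooled was not stated in the sources used here. With 1 library per group there is no spread between samples, so every interval given covers counting error only and no difference has a replicate check. Values given in threes follow the order BMM-ABs, then pOC-ABs, then mOC-ABs.

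MHC class II molecules are pairs of an α and a β chain that carry peptides from endosomes to the surface of macrophages, dendritic cells and B cells, where CD4 T cells read them. New pairs are held by the invariant chain, the product of Cd74, until proteases cut it away and H2-M, a relative of the class II molecules made of the products of H2-DMa and H2-DMb1, loads the peptide. The genes are switched on together by CIITA, a coactivator that does not bind DNA itself and is brought to a promoter module, the X and Y boxes, by RFX, CREB and NF-Y. Macrophages raise CIITA in response to interferon-γ, and osteoclasts form from the same precursors.

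The X and Y boxes are shown because they are the sequence that ties these genes to CIITA. In the RefSeq promoter windows of GRCm38.p6, which run from 250 bases before to 50 bases after a start site, the core letters GNAAC (X box), TGANG (X2 part of the X box) and ATTGG (Y box, the NF-Y site) were searched on both strands in this order, with 2 to 3 bases between the first pair and 10 to 40 bases before the last. The capitals below mark these letters, and each sequence is written 5′ to 3′ on the strand of its gene.
H2-Aa, chr17:34287861-34287910, minus strand: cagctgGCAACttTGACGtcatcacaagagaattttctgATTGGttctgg
H2-Eb1, chr17:34305770-34305818, plus strand: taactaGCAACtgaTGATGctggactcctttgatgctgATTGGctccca
H2-DMb1, chr17:34153091-34153140, plus strand: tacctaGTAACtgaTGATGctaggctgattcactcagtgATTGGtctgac
The Y box ended 43 bases before the RefSeq start of H2-Aa, 54 before that of H2-Eb1 and 56 before that of H2-DMb1. Of these, only the start of H2-Aa is also that of a listed transcript. The listed transcript of H2-Eb1 starts at 34306017, after the RefSeq start at 34305867. The GENCODE span of H2-DMb1 starts at 34153072, before the letters marked above. The order of letters was present in 31 of 32851 windows (0.0944%), which belong to 30 genes, 4 of them class II genes (the 3 above and H2-Ob). The spacing was set after the windows of the members had been read, so this share is a description. Taken alone, GNAAC was present in 84.8% of the windows, TGANG in 89.4% and ATTGG in 37.4%. H2-DMa, the member of chromosome 17 with the most reads, had no such order of letters in the window at the start of its main transcript, chr17:34122582-34122881 on the plus strand, which is printed for comparison and holds no ATTGG.
H2-DMa: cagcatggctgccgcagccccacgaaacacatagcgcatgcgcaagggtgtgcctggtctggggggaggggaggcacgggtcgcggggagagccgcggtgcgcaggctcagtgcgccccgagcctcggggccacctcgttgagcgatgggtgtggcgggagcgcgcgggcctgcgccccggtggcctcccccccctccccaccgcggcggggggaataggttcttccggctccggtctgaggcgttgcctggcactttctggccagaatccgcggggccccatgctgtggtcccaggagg
The annotated span of Brd2, on the minus strand, begins at 34122634, within this window. Another RefSeq window of H2-DMa, chr17:34125268-34125567, also lacked the order of letters. H2-DMa was not searched outside its windows, so letters elsewhere in the gene were not examined. Windows of Cd74, Ciita and H2-Ab1 are not shown.

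The libraries held 9100082, 7387317 and 7705592 mRNA reads, and levels are given as reads per 1000000 mRNA reads (RPM) or, between genes, as the deposited FPKM, which also divides by transcript length. A count of 0 allows up to 3 reads, which is 0.330, 0.406 and 0.389 RPM. The summed RPM of 8 of 9 osteoclast markers with rows (such as Acp5 and Ctsk) was 63.0, 206 and 772, and that of 6 of 9 macrophage markers (such as Csf1r and Cd68) was 2043, 1135 and 1203. Within these sums the markers differed. The osteoclast marker Itgb3 went the other way, with 6, 3 and 0 reads. Csf1r had 1085, 357 and 506 RPM, while Cd68 changed little, at 729, 649 and 656. Itgam had 142, 85.3 and 23.4 RPM and Adgre1 85.4, 43.0 and 15.8, while Mertk had 0, 2 and 5 reads. The macrophage markers C1qa, C1qb and C1qc and the osteoclast marker Calcr had no row, and Mrc1 had 10, 2 and 1 reads. For other cells that carry class II molecules, 3 of 8 B cell markers had rows, with 7, 1 and 6 reads in all, and Ms4a1 had none. Of the dendritic cell markers 5 of 9 had rows, with a sum of 15.7, 11.0 and 9.47 RPM, and Flt3 had none. No row was found for any of 7 neutrophil and 6 erythroid markers. The T cell markers with rows (2 of 7) had 80, 80 and 62 reads, of which Lck held 77, 76 and 62, and 3 of 7 markers of stroma and osteoblasts had 7, 3 and 11.

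Nearly all reads of the listed members were those of the invariant chain. Over the 5 listed members there were 2615, 1486 and 1844 reads, and Cd74 held 95.1%, 95.5% and 95.8% of them. The members together made up 0.0287%, 0.0201% and 0.0239% of the mRNA reads. Of the chains that form the class II molecules themselves, the listed H2-Aa and H2-Eb1 were close to the counting limit in BMM-ABs and pOC-ABs. The library of mOC-ABs held a few reads of them, and H2-Ab1 had no row.

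Cd74 (chromosome 18, 60803848 to 60812652) was read 2486, 1419 and 1767 times. These are 273 RPM (exact Poisson 95% interval 263 to 284), 192 (182 to 202) and 229 (219 to 240.3), so that BMM-ABs had the highest level and pOC-ABs the lowest, with no overlap of the counting intervals. By FPKM it ranked 237, 405 and 317 among the 12078, 11988 and 11873 protein-coding genes with a read. The log2 ratio of Cd74 was -0.51 (95% interval -0.60 to -0.41) in pOC-ABs against BMM-ABs (G1). It was -0.25 (-0.34 to -0.16) when mOC-ABs were set against BMM-ABs (G2) and 0.26 (0.15 to 0.36) when they were set against pOC-ABs (G3). Each library enters more than 1 of these comparisons, so they are not independent of each other. None of these passed the 2-fold limit that the study set. Fewer cells of a type and less RNA per cell cannot be told apart in such libraries.

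**Figure D1:**
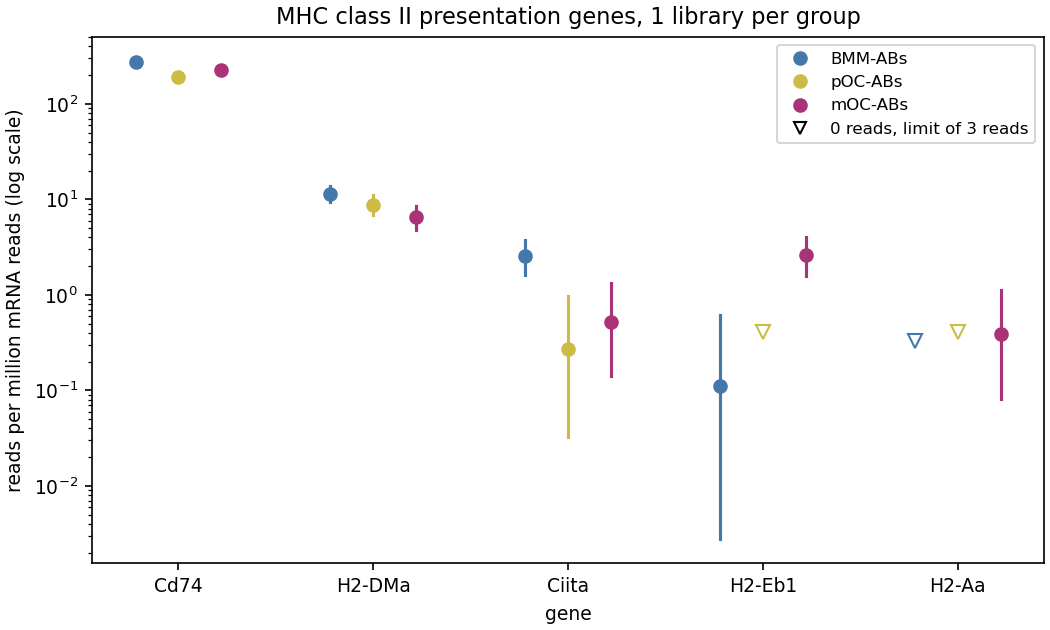
Level of each listed member in each library, in RPM on a log axis, with exact Poisson 95% intervals (counting error only); open triangles mark 0 reads and stand at the limit of 3 reads. Cd74 lies between 192 and 273 in every library, while H2-Aa and H2-Eb1 lie near the limit except for H2-Eb1 in mOC-ABs, at 2.60.

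The listed Cd74 transcripts encode 2 forms of the invariant chain. Cd74-201, with 8 exons, encodes 215 residues, and Cd74-202 and Cd74-203 encode 279 residues, because both include 1 additional exon of 192 bases (60811294 to 60811485) that adds 64 residues. As background, the long form is known as p41 and its additional part is a thyroglobulin-like domain that binds cathepsin L. Cd74-201 was the main transcript in every library, with 2188, 1273 and 1652 reads. Cd74-203, which differs from Cd74-202 by a further intron in the last part of the transcript, had 277, 136 and 102 reads, and Cd74-202 had 21, 10 and 13. The long form held 12.0% of the Cd74 reads in BMM-ABs (Clopper-Pearson 95% interval 10.7% to 13.3%), 10.3% in pOC-ABs (8.76% to 12.0%) and 6.51% in mOC-ABs (5.40% to 7.76%). The interval of mOC-ABs lay below those of the other ABs, and these overlapped each other. The long form set against the short form gave log2 ratios of -0.25 (Woolf 95% interval -0.55 to 0.05) in G1, -0.97 (-1.29 to -0.64) in G2 and -0.72 (-1.09 to -0.35) in G3. The reads of the short form gave a log2 ratio of -0.17 (-0.26 to -0.07) in G2, and those of the long form -1.13 (-1.46 to -0.82). Read counts of overlapping transcripts are estimates, and shares of main transcripts differed between these libraries in many genes. Among 1070 protein-coding genes with at least 1000 reads in every library and more than 1 listed transcript, the share of the main transcript varied by a median of 6.40 percentage points over the libraries. That of Cd74 varied by 5.48, and 54.3% of these genes varied more.

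**Figure D2:**
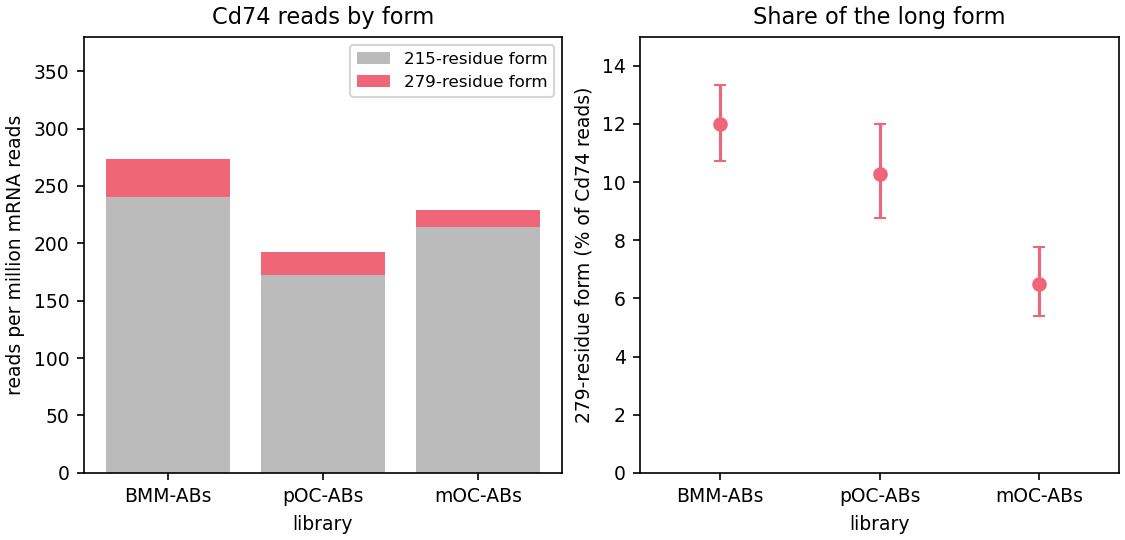
Left, Cd74 level in RPM in each library, stacked by the form the transcripts encode. Right, the share of Cd74 reads on transcripts of the 279-residue form with Clopper-Pearson 95% intervals, from 12.0% for BMM-ABs over 10.3% for pOC-ABs to 6.51% for mOC-ABs.

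H2-DMa, the α chain of the peptide-loading molecule H2-M (chromosome 17, 34119541 to 34139101), had 105, 65 and 50 reads. This is 11.5 RPM (9.44 to 14.0), 8.80 (6.79 to 11.2) and 6.49 (4.82 to 8.55), and the interval of mOC-ABs did not overlap that of BMM-ABs. G1 gave a log2 ratio of -0.39 (-0.86 to 0.07), G2 of -0.83 (-1.35 to -0.33) and G3 of -0.44, where the interval reached up to 0.11, and none passed 2-fold. H2-DMa-201 held 101, 63 and 47 of the reads, and the rest lay on H2-DMa-202, which the annotation calls a retained intron. Per length, H2-DMa stood far below Cd74, with an FPKM of 7.81 against 222 in BMM-ABs, 5.90 against 156 in pOC-ABs and 4.52 against 187 in mOC-ABs.

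Of the chains that present peptide, H2-Aa and H2-Eb1 had rows, each with 1 listed transcript. H2-Aa, the α chain of the class II molecule I-A (chromosome 17, 34282744 to 34287823), had 0, 0 and 3 reads, so no fold is given. H2-Eb1, the β chain of I-E (chromosome 17, 34305867 to 34316674), had 1, 0 and 20 reads, so that nearly all came from the mOC-AB library. The reads of mOC-ABs are 2.60 RPM (1.59 to 4.01), above the interval of BMM-ABs (0.00278 to 0.612) and the limit of pOC-ABs. H2-Eb1 had a log2 ratio of 4.56 (1.92 to 9.94) in G2. It was 6.39-fold higher in mOC-ABs than in pOC-ABs when 0 reads are set to 3, which leaves out the counting error of the 20 reads. Mice of the C57BL/6 strain are known to lack the α chain of I-E, and the gene of that chain, H2-Ea-ps, had no row. Beside H2-Eb1, the related gene H2-DMb2 had 2, 4 and 10 reads, which it can share with its near copy H2-DMb1, and the B cell markers Cd79a, Cd79b and Pax5 had 0, 3 and 3 reads in mOC-ABs. In BMM-ABs the B cell markers had 2, 4 and 1 reads, and whether B cells took part in the reads of H2-Eb1 was not tested.

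Ciita, the coactivator of the class II genes (chromosome 16, 10480059 to 10528418), had 23, 2 and 4 reads. Its level was 2.53 RPM (1.60 to 3.79), 0.271 (0.0328 to 0.978) and 0.519 (0.141 to 1.33), so that BMM-ABs stood above the other ABs, which overlapped. G1 gave a log2 ratio of -3.22 (-6.35 to -1.21), G2 of -2.28 (-4.28 to -0.73) and G3 of 0.94 (-1.86 to 4.41). On the scale of log2(FPKM + 1), which understates differences of low genes, Ciita stood at -0.49 in G1 and -0.43 in G2, both within 2-fold. All reads were assigned to Ciita-201. The annotation gives 8 transcripts of Ciita with starts in 3 clusters, and Ciita-201 starts in the middle cluster, 8.22 kb after the first start and 1.47 kb before the last cluster. Ciita is known to be transcribed from several promoters that differ between cell types, but which of them the clusters are was not assigned here.

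Across the members, Ciita was the only gene below 0.5-fold in G1, where 3 of the 5 had a ratio, and no member was above 2-fold. In all genes with at least 20 reads over the libraries, 6.03% of 12695 were below 0.5-fold and 4.83% above 2-fold in G1. In G2, Ciita was below 0.5-fold and H2-Eb1 above 2-fold, of 4 members with a ratio, against 8.97% and 4.15% of 12704 genes. In G3, H2-Eb1 was above 2-fold and no member below 0.5-fold, of 4 with a ratio, against 3.49% and 6.84% of 12694 genes. Both genes had few reads, 29 for Ciita and 21 for H2-Eb1 in all. Counted in either direction, 10.9% of all genes passed the limit in G1, 13.1% in G2 and 10.3% in G3. Among genes with 20 to 50 reads, 17.7% were below 0.5-fold in G1, 24.1% in G2 and 25.1% in G3, and 18.5%, 15.2% and 14.7% were above 2-fold, so that 36.2%, 39.3% and 39.8% passed in either direction. The median log2 ratio of the genes with at least 20 reads was -0.02 for G1 and -0.05 for both G2 and G3. With the mRNA and lncRNA reads together as the library total, that of G1 shifted by -0.20, and the share above 2-fold among all genes past the limit in G1 went from 44.5% to 26.8%.

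**Figure D3:**
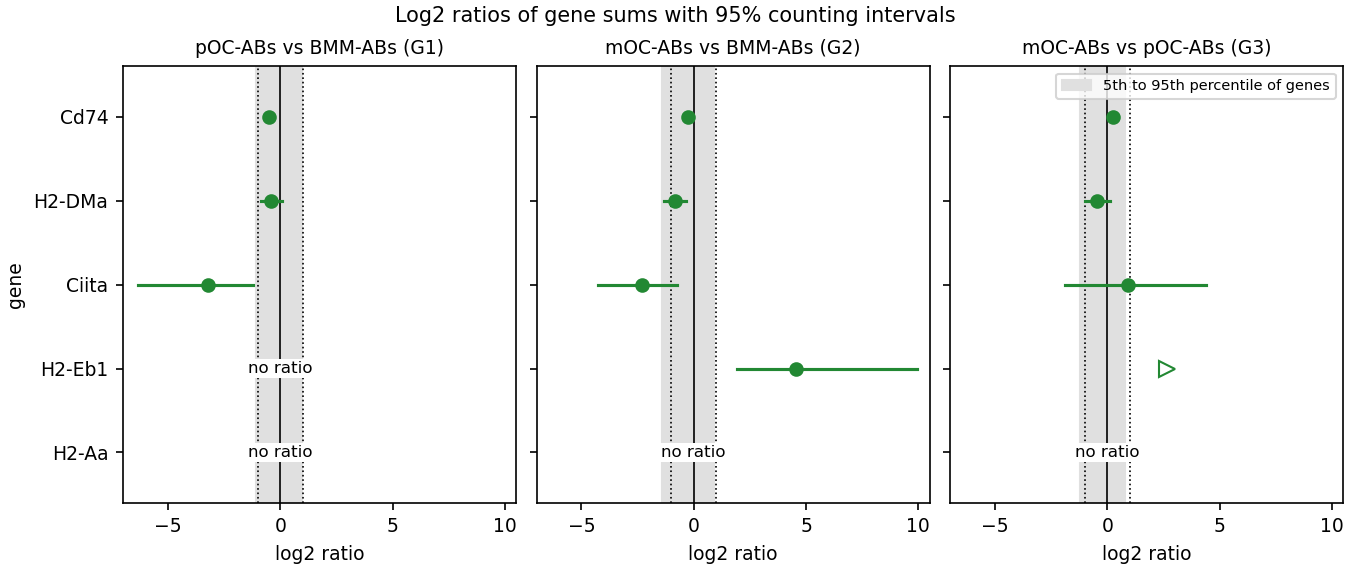
Log2 ratio of each listed member in the comparisons G1, G2 and G3, with 95% counting intervals; the arrow is a lower bound against 3 reads, "no ratio" marks genes with at most 3 reads in both libraries, dotted lines mark 2-fold and grey bands the 5th to 95th percentile of genes with at least 20 reads. Cd74 and H2-DMa lie within 2-fold in every comparison, Ciita at -3.22 in G1 and -2.28 in G2, and H2-Eb1 at 4.56 in G2.

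By FPKM the order of the members was Cd74, H2-DMa, Ciita (0.481), H2-Eb1 (0.0928) and H2-Aa (0) in BMM-ABs, and Cd74, H2-DMa, H2-Eb1 (2.19), H2-Aa (0.344) and Ciita (0.0988) in mOC-ABs. In pOC-ABs it was Cd74, H2-DMa and Ciita (0.0515), with H2-Eb1 and H2-Aa at 0. Per length, Ciita, H2-Eb1 and H2-Aa in BMM-ABs were not separable at this depth. Neither were Ciita and the chains at 0 in pOC-ABs, nor H2-Aa and Ciita in mOC-ABs, with 3 and 4 reads. The sum of the members had a log2 ratio of -0.51 in G1 and -0.26 in G2. Among 9159 other protein-coding genes with at least 200 reads, the genes whose pair of log2 ratios in G1 and G2 lay closest to that of the sum were Bub1b, Gxylt1, Scrib, Iffo2 and Cgas, at distances of 0.00596 to 0.0249. This likeness is over 3 libraries, and 154 genes lay within 0.1 and 904 within 0.25.

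Along chromosome 17 the class II genes stand next to genes of the class I pathway. Between the starts of H2-DMa and H2-Eb1 the annotation places Psmb9 and Psmb8, subunits of the immunoproteasome, and Tap1 and Tap2, the peptide transporter. Psmb8 had 323, 412 and 190 reads, Tap1 had 173, 125 and 72, Tap2 had 191, 60 and 74 and Psmb9 had 114, 103 and 59. All 4 had more reads in every library than H2-Aa and H2-Eb1. The lncRNA table listed 2 transcripts within the annotated span of H2-DMa, NONMMUT029282.2 with 32, 57 and 31 reads and MSTRG.20891.2 with 24, 45 and 31. They end 969 and 2534 bases before the start of H2-DMa-201 and also overlap Brd2, and as the table gives no strand their reads cannot be assigned between these genes. None of the 1372 circRNA junctions had a member as host gene.

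**Figure D4:**
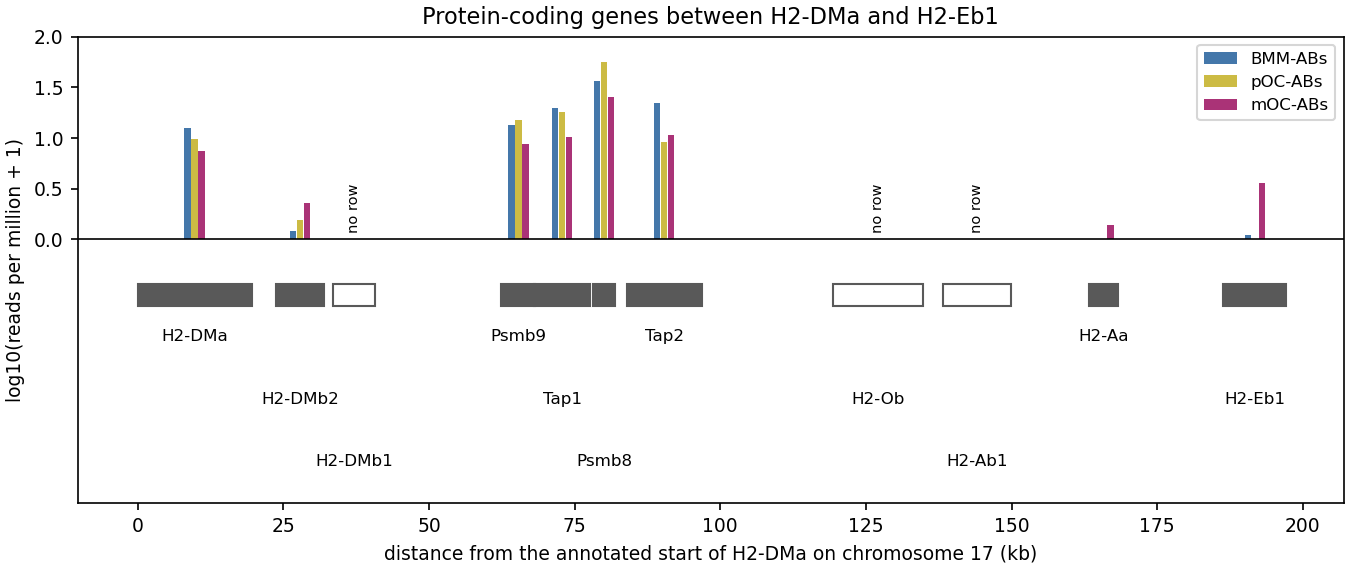
Levels of the protein-coding genes from H2-DMa to H2-Eb1 on chromosome 17, as log10 of RPM plus 1, against the distance in kb from the annotated start of H2-DMa, with gene spans below (open boxes have no row in the mRNA table; Brd2, which overlaps the first gene, is left out). Psmb8, Tap1, Tap2 and Psmb9 stand between H2-DMa and the stretch with H2-Ob and H2-Ab1, which have no row, and H2-Aa and H2-Eb1, which have few reads.

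Other genes of the pathway were taken from lists of 37 annotated genes, of which 34 had rows and 32 at least 20 reads. In G1, 8 of the 32 (25.0%) were below 0.5-fold and 1 above 2-fold, where 6.03% and 4.83% of all genes were, with a median log2 ratio of -0.24 against -0.02 in all genes. In G2, 7 (21.9%) were below 0.5-fold and 2 above 2-fold, where 8.97% and 4.15% of all genes were, with a median of -0.40 against -0.05. In G3, 2 were below 0.5-fold and 1 above 2-fold, where 6.84% and 3.49% of all genes were, with a median of -0.01 against -0.05. The lists were drawn up with earlier results of these data known, and the values describe these libraries.

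The proteases of the endosome made up most of the reads of these lists. Cathepsin S (Ctss), which removes the last part of the invariant chain, had 4761, 2279 and 1674 reads, its log2 ratio being -0.76 in G1 and -1.27 (-1.35 to -1.19) in G2. Legumain (Lgmn), an asparaginyl endopeptidase that starts the cutting of some antigens, had 4349, 1570 and 1491 reads and was below 0.5-fold in both, at -1.17 and -1.30. Ctsb had 14727, 5252 and 6091 reads, at -1.19 and -1.03, and was the protease with the most reads. All 6 genes of this list had log2 ratios below 0 in G1 and G2. Their medians were -0.77 and -0.83, against -0.02 and -0.05 in all genes with at least 20 reads. The highest ratios were those of Ifi30, a thiol reductase of the endosome, at -0.26 and -0.41. Cathepsin L (Ctsl), the protease that the long form of the invariant chain binds, had 657, 408 and 388 reads, at -0.39 and -0.52.

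Of the 7 factors that bind the X and Y boxes (Rfx5, Rfxap, Rfxank, Nfya, Nfyb, Nfyc and Creb1), 0 passed 2-fold in any comparison, where 10.9%, 13.1% and 10.3% of all genes did in G1, G2 and G3. Rfx5, the subunit of RFX that binds DNA, had 438, 254 and 379 reads, its log2 ratio being -0.49 (-0.71 to -0.26) in G1 and 0.03 (-0.17 to 0.23) in G2. Rfxank, another subunit of RFX, had 115, 105 and 64 reads, at -0.61 (-1.07 to -0.15) in G2 and -0.78 (-1.25 to -0.31) in G3. Nfya had 1321, 944 and 988 reads, and Creb1 had 896, 710 and 581.

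Of the 12 genes of the list upstream of Ciita, 4 were below 0.5-fold and 1 above 2-fold in G1, where 6.03% and 4.83% of all genes were. In G2, 3 were below and 1 above, against 8.97% and 4.15% of all genes. In G3, 1 was below and 1 above, against 6.84% and 3.49%. The genes named next are mostly those past the limit, while the transcription factor Spi1, with 2482, 2130 and 2693 reads, lay within 2-fold in every comparison. Irf8, a transcription factor of the monocyte lineage that represses osteoclast formation, had 1330, 431 and 207 reads, its log2 ratio being -1.32 (-1.48 to -1.17) in G1, -2.44 (-2.66 to -2.23) in G2 and -1.12 (-1.37 to -0.88) in G3. Prdm1, which encodes Blimp-1, a repressor of Ciita in plasma cells, had 1, 5 and 56 reads, its log2 ratio being 6.05 (3.51 to 11.38) in G2 and 3.42 (2.12 to 5.10) in G3. Ifngr1, the ligand-binding chain of the interferon-γ receptor, had 280, 97 and 98 reads, at -1.23 in G1 and -1.27 in G2. Its partner Ifngr2 had 859, 597 and 883 reads, within 2-fold in every comparison. Il10ra, the receptor chain for interleukin-10, had 449, 158 and 108 reads, at -1.21 and -1.82. The summed macrophage markers given above were also lower in pOC-ABs and mOC-ABs, and the summed osteoclast markers were higher. The part of either in these differences was not tested, nor was any effect of Prdm1 on Ciita.

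Of the molecules of T cell contact, Cd86 and Cd80, both ligands of CD28, differed in opposite directions in G2. Cd86 had 24, 7 and 6 reads, its log2 ratio being -1.76 (-3.34 to -0.43) in G2, and Cd80 had 82, 103 and 171, at 1.30 (0.91 to 1.70). Cd83, which holds class II molecules at the surface, had 588, 232 and 295 reads, at -1.04 (-1.27 to -0.82) in G1. The ubiquitin ligase March8 had 799, 567 and 654 reads, and March1, which marks class II molecules for degradation in dendritic cells and B cells, had 3, 6 and 0. H2-Oa, a chain of the H2-M inhibitor H2-O, had 13, 9 and 15 reads, all ratios being within 2-fold.

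**Figure D5:**
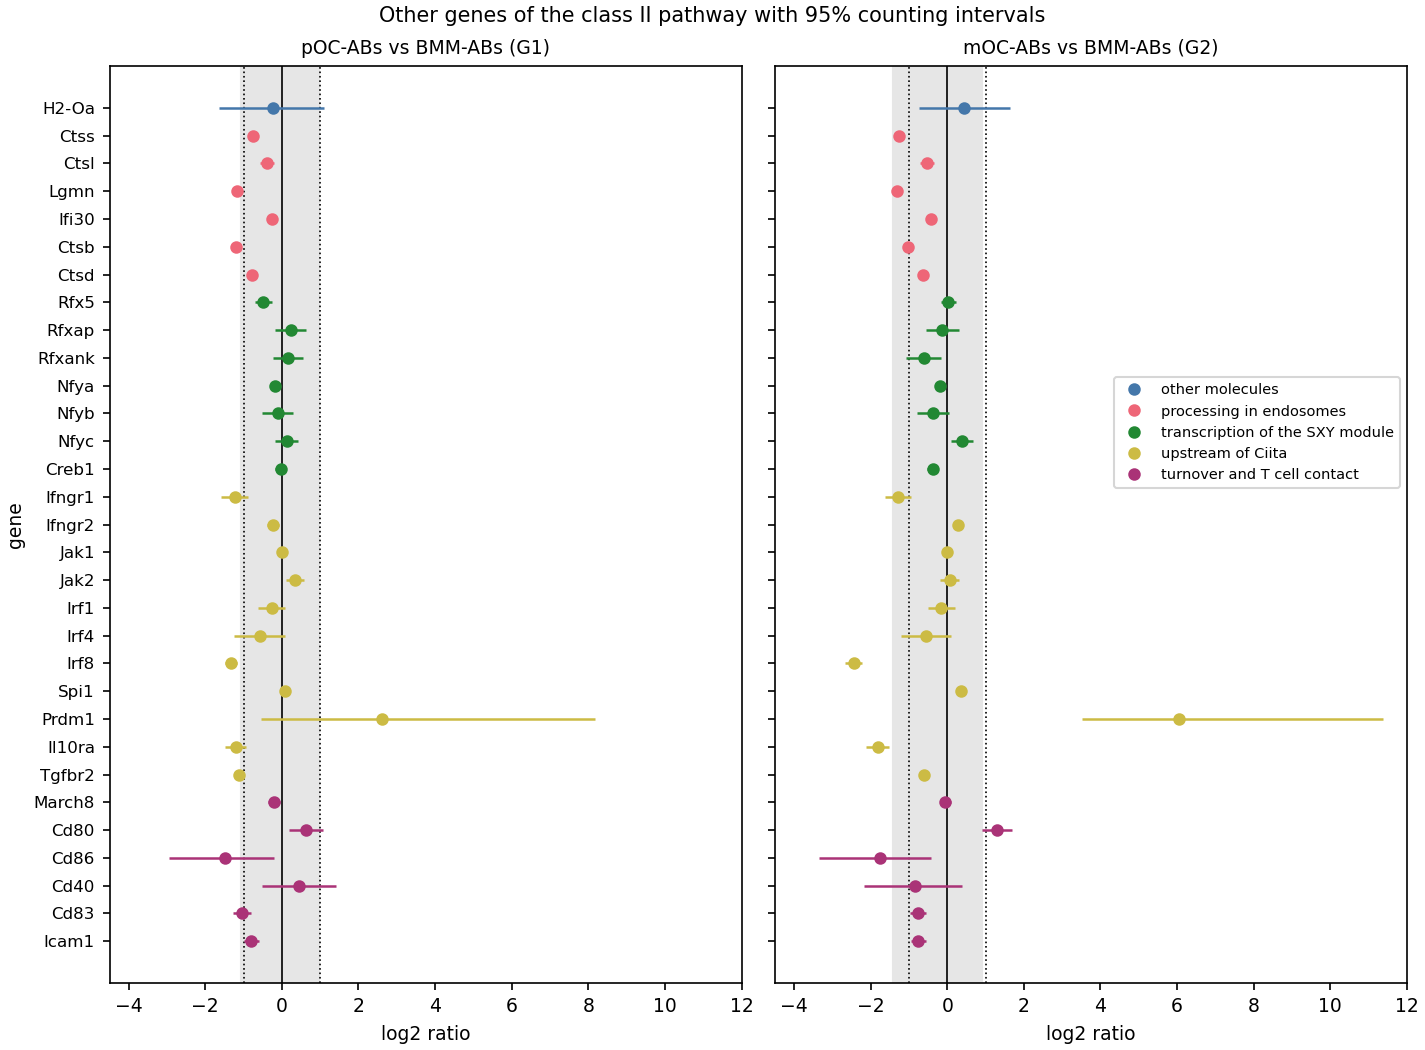
Log2 ratios of pathway genes with at least 20 reads, other than the members and 1 gene that is not drawn, in pOC-ABs and mOC-ABs against BMM-ABs, with 95% counting intervals, coloured by list; dotted lines mark 2-fold and grey bands the 5th to 95th percentile of all genes with at least 20 reads. Irf8 lies at -2.44 and Prdm1 at 6.05 in G2, while the 7 factors of the X and Y boxes lie within 2-fold.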

How the data were processed

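RNA-seq tables of 3 libraries, 1 per group, were used. The authors deposited read counts and FPKM per mRNA transcript, read counts per lncRNA transcript and junction read counts per circRNA. The submitters' processing notes name FastQC, HISAT2, StringTie and GRCm38, and the circRNA caller is not given in the sources used here. Poly-A selected libraries were described in the methods of the study. Columns named 0h, 24h and 72h were taken as BMM-ABs, pOC-ABs and mOC-ABs from the RANKL times in the labels. All per-sample columns could be assigned. Transcripts were matched to GENCODE M21 by identifier, and 211 without a match (0.108% to 0.111% of reads) stayed in the library totals only.

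Counts were summed per gene and divided by the mRNA reads of the library. Ratios carry Clopper-Pearson 95% intervals from the reads of both libraries, levels exact Poisson intervals, and form ratios Woolf intervals. Reads carry no molecular identifiers, so all cover counting error only. With at most 3 reads in both libraries no ratio was formed, and 0 reads against more than 3 gave a bound against 3 reads. Past the limit meant a ratio above 2 or below 0.5. No test was run, since there is 1 library per group, and the study's FDR was not recomputed. Of the listed genes, 2 count in their lists but are not reported here by name. Members and lists were chosen with earlier results of these data known. Named were all members with their listed transcripts, genes of the lists, and the 5 genes closest to the summed members in log2 ratios of G1 and G2. Psmb9, Psmb8, Tap1, Tap2 and the search letters of the promoters were chosen after values or sequences were seen. Ratios and intervals were tested on simulated counts. Python 3.11.15, numpy 2.4.6, pandas 2.3.3, scipy 1.17.1 and, for TMM factors, edgeR 4.0.16 in R 4.3.3 were used.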

Additional observations from a re-analysis of the deposited data

How the results depend on the processing

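Library totals of both tables, median-of-ratios, upper-quartile or TMM factors, summed FPKM with and without a pseudocount of 1, protein-coding transcripts only and transcripts with at least 20 reads were tried, and no filter on low counts for all genes. All 87 values of single members kept their direction, and 75 of the 80 whose value has a counting interval stayed within it. The other 7 are those of H2-Eb1 in G3, a bound without an interval, and lay past 2-fold. With both tables as the total the summed members had log2 ratios of -0.71 in G1 and -0.36 in G2, and 2 members passed 2-fold in G3, Ciita being the second. With FPKM and a pseudocount of 1, 0 members passed in G1 and 1 in G2, as Ciita went to log2 ratios of -0.49 and -0.43, and H2-Eb1 to 1.55 in G2. A 1.5-fold limit gave 1 in G1, 3 in G2 and 2 in G3, H2-DMa being added in G2. Without Cd74, an alternative chosen after seeing the data, the sum had log2 ratios of -0.64, -0.50 and 0.14. Genes past 2-fold numbered 1378, 1667 and 1311 in G1, G2 and G3, against 623, 799 and 491 with at least 200 reads and, chosen after seeing the data, 408, 445 and 449 with 20 to 50 reads. The main transcripts of Cd74 and H2-DMa, the members with more than 1 listed, were the same by reads and by FPKM. No replicate could be left out, and no paired analysis was possible because each group has 1 library. Depth limits H2-Aa, H2-Eb1 and Ciita, which had at most 23 reads in any library.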
